A study of Homo sapiens with 8 samples.

Results

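The small GTPases RAB27A, RAB27B, RAB3B and RAB3D, the Rab27 effectors SYTL1, SYTL2, SYTL4 and MLPH, the motor MYO5A and the priming factor UNC13D were followed in LNCaP cells, an established line from a human prostate cancer metastasis. These 10 genes were chosen by a rule that joined their place in regulated secretion with the log2 signal of arrays labelled siGATA2 against siControl, so their differences between the groups are given as a description, with no p-value, and counts of them past the threshold of a fit over all genes support nothing. They make up 10 of 28850 genes tested and are read by 14 probes. In the siGATA2 group the cells received 30 nM of an siRNA against GATA2, a transcription factor, and in the siControl group a scrambled siRNA, both with oligofectamin in RPMI medium with fetal bovine serum. RNA was taken 72 h after transfection and hybridized to 8 one-colour Agilent arrays, 4 for each group, which the submitters call biological replicates. The model is 1 cell line and the methods list a single catalogue item as siGATA2, so that effects of this siRNA on other transcripts cannot be told apart from effects of GATA2.

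Rab GTPases are switches that, when bound to GTP, recruit effectors to the membrane of a vesicle. RAB27A and RAB27B mark secretory granules, lysosome-related organelles and multivesicular bodies, and the RAB3 proteins mark granules close to release. The effectors tether the vesicle to the cell cortex or to a myosin, after which priming factors and SNARE proteins bring the membranes together. In the prostate, luminal cells use regulated secretion to deliver their products into the gland, and RAB27A and RAB27B are best known in cancer for their part in the release of exosomes.

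All values below are log2 signals of Feature Extraction after quantile normalization over the arrays. Differences are siGATA2 minus siControl on this scale. A gene is called where the adjusted p of limma was under 0.05. Levels of different probes are not comparable with each other. The signal of GATA2 itself did not show a fall. It was 12.61, 12.54, 11.57 and 11.40 on siGATA2 arrays 1 to 4 and 11.74, 11.28, 11.10 and 11.29 on siControl arrays 1 to 4, and the groups overlapped. With a difference of 0.68 and a standard error of 0.312 it was not called (adjusted p = 0.154 from limma), and every direction below rests on the labels of the arrays. All 7 luminal markers examined, among them KLK3 and FOLH1, were well above background on all 8 arrays, and KLK3 was lower on the siGATA2 arrays, at -1.63 (adjusted p = 0.0321 from limma). They had a summed linear signal of 258000 to 411000 on siGATA2 and 374000 to 462000 on siControl arrays. The 2 basal and 3 stromal markers tested were not called, with sums of 19.9 to 31.1 and 409 to 830 on siGATA2 and 24.8 to 93.6 and 519 to 958 on siControl arrays. PTPRC, a leukocyte marker, and PMEL, a melanocyte marker, were well above background on all 8 arrays and higher on the siGATA2 arrays, with differences of 0.87 and 0.57 (adjusted p = 0.00138 and 0.00628 from limma), while CD3E, MLANA and TYR were not called. The summed signal of the 2 leukocyte markers tested was 549 to 651 on siGATA2 and 349 to 430 on siControl arrays, and that of the 3 melanocyte markers 722 to 888 and 521 to 569. Their part in the results was not tested.

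Features of the arrays themselves touch the values of these genes. Between 24241 and 36968 probes per array were well above background, fewest on siControl arrays 1 and 3. The 8 arrays shared 1 slide and 1 scan, with 3 siGATA2 arrays and 1 siControl array in its first row and the reverse in its second. The sample titles carry letters whose meaning the labels do not give, and siGATA2 arrays 1 and 2 and siControl array 1 have the letters A and B, while the other 5 arrays have letters from D to G. For several of the secretion genes the values fell apart along these letters, so the differences are also given within each set of letters.

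Of the 10 genes, 1 was called lower and 4 higher, where 14.2% and 12.3% of all genes tested were called lower and higher. At least a 2-fold change was seen in 1 lower and 3 higher genes, against 7.13% and 4.52% of all genes. In 6 of the 10 the groups did not overlap, as in 32.6% of all genes. Since the genes were chosen on this contrast, nothing is read from these counts. The gene counted as lower was RAB27A, and those counted as higher were SYTL2, UNC13D, MYO5A and MLPH. Arrays were also scaled to their E1A spike-in probes, which had a mean log2 signal of 11.13 on siControl array 1 and 13.45 to 13.83 on the others. This scaling moved the median of all genes from 0.09 to -0.43, so values under it are read against that shift.

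**Figure D1:**
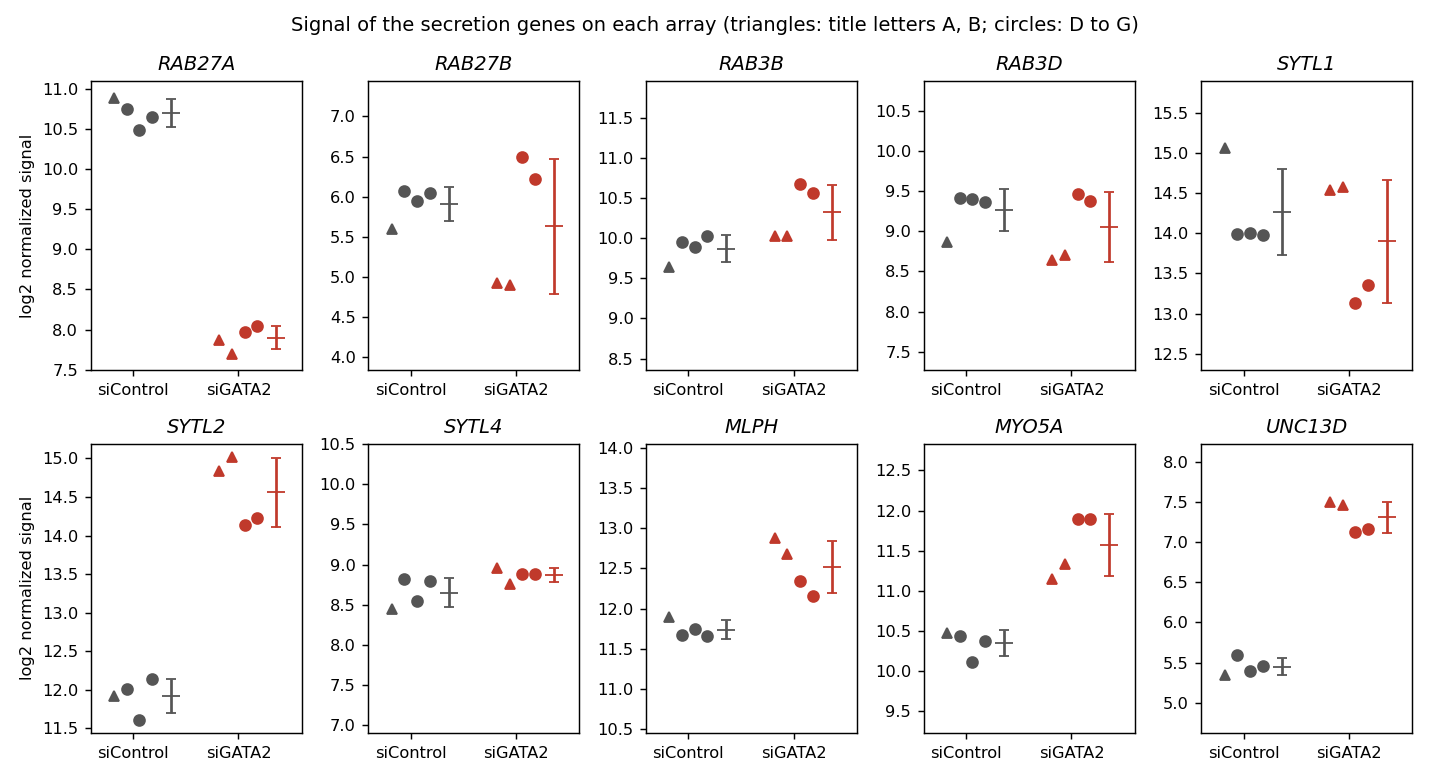
Log2 normalized signal (y axis) of the 10 secretion genes on each of the 8 arrays, siControl in grey and siGATA2 in red, with the mean and SD of 4 arrays beside the points. Triangles are arrays with title letters A and B and circles those with D to G, and each panel has its own range of the y axis. RAB27A was lower and SYTL2, UNC13D, MYO5A and MLPH were higher on every siGATA2 array, while RAB27B, RAB3D and SYTL1 separated by title letter.

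Among the GTPases, RAB27A, which recruits the tethering effectors to the vesicle, was far lower on the siGATA2 arrays. Its signal was 7.87, 7.70, 7.97 and 8.04 on siGATA2 arrays 1 to 4 and 10.89, 10.75, 10.48 and 10.65 on siControl arrays 1 to 4. The groups lay well apart, with means of 7.90 ± 0.146 and 10.70 ± 0.173 (SD, n = 4). This is a difference of -2.80 (standard error 0.129), or 6.96-fold lower. In such bulk RNA, fewer cells that express a gene and less of its RNA per cell cannot be told apart. The fall was of like size on arrays with letters A and B, at -3.11, and on those with letters D to G, at -2.62. Of the siControl arrays, only array 1 has letter A or B. Within the 2 rows of the slide, each with 1 array of one of the groups, the fall was -2.81 and -2.67. The 2 spots of the RAB27A probe on an array differed with an SD of 0.0484, which covers error within an array only.

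RAB27B, the close relative of RAB27A, did not share this pattern. Its signal was 4.92, 4.90, 6.49 and 6.22 on siGATA2 arrays 1 to 4 and 5.60, 6.07, 5.94 and 6.04 on siControl arrays 1 to 4. The 2 siGATA2 arrays with letters A and B lay below all siControl arrays and the other 2 above them. The difference was -0.28 (standard error 0.388) over all arrays, -0.69 within letters A and B and 0.34 within letters D to G. Within the 2 rows of the slide it was -0.60 and 0.35. The RAB27B probe is printed 10 times on each array, and the spots of an array had an SD of 0.166, which covers error within an array only, while the SD between the siGATA2 arrays was 0.841. On 1 siControl array this probe did not reach the level that Feature Extraction calls well above background.

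The RAB3 proteins act on granules that are close to the plasma membrane. RAB3B was 10.03, 10.03, 10.67 and 10.56 on siGATA2 arrays 1 to 4 and 9.64, 9.95, 9.89 and 10.02 on siControl arrays 1 to 4. The groups did not overlap, but the lowest siGATA2 and the highest siControl array were almost equal. The difference was 0.45 (standard error 0.186), with 0.40 within letters A and B and 0.66 within letters D to G; with arrays scaled to the E1A spike-in probes its sign turned, at -0.11.

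RAB3D was 8.64, 8.71, 9.46 and 9.38 on siGATA2 arrays 1 to 4 and 8.87, 9.42, 9.40 and 9.36 on siControl arrays 1 to 4. Here the arrays with letters A and B were low in both groups and all others lay close together. The difference was -0.22 (standard error 0.236), with -0.20 and 0.03 within the sets of letters. In the rows of the slide it was -0.43 and 0.15.

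The synaptotagmin-like proteins SYTL1, SYTL2 and SYTL4 bind Rab27 with one end and membrane lipids or the plasma membrane SNARE machinery with the other. SYTL2 was the gene with the largest rise of the 10. Its signal was 14.84, 15.02, 14.13 and 14.23 on siGATA2 arrays 1 to 4 and 11.92, 12.01, 11.61 and 12.14 on siControl arrays 1 to 4. Every siGATA2 array lay above every siControl array, with means of 14.56 ± 0.444 and 11.92 ± 0.223 (SD, n = 4), a difference of 2.64 (standard error 0.232) or 6.22-fold. Within letters A and B the difference was 3.01, and within letters D to G it was 2.26. SYTL2 is read by a single probe, so its transcripts were not measured apart. The same limit holds for RAB27A, RAB27B, RAB3B, RAB3D, MYO5A and UNC13D. RAB27A was thus lower and its effector SYTL2 higher on the siGATA2 arrays. With spike-in scaling the differences were -3.32 for RAB27A and 1.96 for SYTL2.

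SYTL1 was read by 3 probes that had the same mean difference, -0.36, but not the same pattern over the arrays. The brightest was 14.54, 14.58, 13.13 and 13.35 on siGATA2 arrays 1 to 4 and 15.06, 13.99, 14.00 and 13.98 on siControl arrays 1 to 4. In each group the arrays with letters A and B were the high ones, by 1.32 in siGATA2 and 1.07 in siControl. Within letters A and B the difference was -0.50 and within letters D to G -0.75, so that it was larger within the letters than over all arrays. With array weights its sign turned, at 0.14, and it was -0.09 without siControl array 1, -0.10 without siGATA2 array 3 and -0.18 without siGATA2 array 4. With spike-in scaling it was -1.10, and in the rows of the slide it was 0.10 and -1.0. The second probe was 10.35, 10.31, 9.71 and 9.70 on siGATA2 arrays 1 to 4 and 10.30 to 10.42 on siControl arrays, so only siGATA2 arrays 3 and 4 lay apart there. The dimmest probe ran from 6.03 to 6.55 on siGATA2 and from 6.29 to 6.79 on siControl arrays.

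SYTL4, also known as granuphilin, was 8.96, 8.76, 8.88 and 8.88 on siGATA2 arrays 1 to 4 and 8.45, 8.82, 8.55 and 8.79 on siControl arrays 1 to 4. The groups overlapped and the difference was 0.22 (standard error 0.119), with 0.41 and 0.16 within the sets of letters; it was -0.07 as the mean over both probes and -0.30 with spike-in scaling. The dimmer probe had a difference of -0.35, where siControl array 3 stood at 6.52 and the remaining 7 arrays at 5.21 to 5.47.

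MLPH and MYO5A are 2 parts of 1 complex. MLPH, melanophilin, holds RAB27A at one end and MYO5A, an actin motor, at the other, and the complex is best known for carrying pigment granules. MLPH was 12.88, 12.68, 12.35 and 12.16 on siGATA2 arrays 1 to 4 and 11.90, 11.67, 11.75 and 11.66 on siControl arrays 1 to 4. All siGATA2 arrays lay above all siControl arrays, by a mean of 0.77 (standard error 0.171) or 1.71-fold, with 0.88 within letters A and B and 0.56 within letters D to G. The difference was 0.68 with slide row as a block, 0.64 as the mean over both probes and 0.12 with spike-in scaling, and under these settings MLPH was not past the threshold. Its second probe had a difference of 0.51 (standard error 0.296) and overlapping groups, since siControl array 1 was at 10.48 and the other siControl arrays at 9.73 to 9.78.

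MYO5A was 11.15, 11.34, 11.90 and 11.89 on siGATA2 arrays 1 to 4 and 10.47, 10.44, 10.11 and 10.38 on siControl arrays 1 to 4. The groups did not overlap, and here the siGATA2 arrays with letters D to G were the higher ones. The difference was 1.22 (standard error 0.20), or 2.33-fold, with 0.77 within letters A and B and 1.58 within letters D to G. With spike-in scaling it was 0.62, not past the threshold. Thus the 2 partners of RAB27A in this complex were higher on the siGATA2 arrays, on which RAB27A itself was lower.

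UNC13D, also known as Munc13-4, is a Rab27 effector that primes granules for fusion. It was 7.50, 7.46, 7.13 and 7.16 on siGATA2 arrays 1 to 4 and 5.35, 5.59, 5.40 and 5.46 on siControl arrays 1 to 4. The groups lay apart by 1.86 (standard error 0.127), or 3.64-fold, and the spread within each group was small, with SDs of 0.193 and 0.105. Within letters A and B the difference was 2.13 and within letters D to G 1.66. Its probe, like that of RAB27B, was too dim on 1 siControl array to count as well above background. The size of the difference depended on the background correction, being 1.07 with normexp, which shrinks dim signals by construction. It also depended on the scaling, being 2.10 with scaling to the 75th percentile. With spike-in scaling it was 1.5, not past the threshold.

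**Figure D2:**
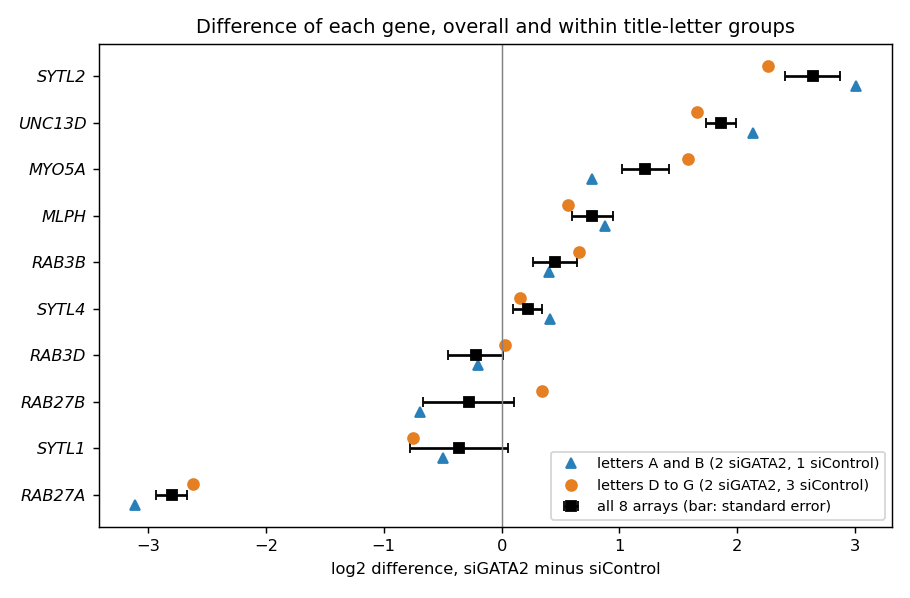
Log2 difference of siGATA2 minus siControl (x axis) for the 10 secretion genes, over all 8 arrays with its standard error (squares), within title letters A and B (triangles) and within letters D to G (circles). RAB27A was at -2.80 and SYTL2, UNC13D, MYO5A and MLPH were above 0 in each of the 3 sets, while RAB27B was at -0.69 within letters A and B and at 0.34 within D to G.

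The separation along title letters was not used to choose the genes. On the siGATA2 arrays, 9 of the 10 genes had both arrays with letters A and B on the same side of both arrays with letters D to G. So had 79.4% of the 28822 genes measured on all 4 of these arrays, and nothing particular to the 10 genes is read from their count. RAB27A, RAB27B, RAB3B, RAB3D and MYO5A were lower with A and B, by amounts from 0.22 for RAB27A to 1.44 for RAB27B. SYTL1, SYTL2, MLPH and UNC13D were higher with A and B, from 0.33 for UNC13D to 1.32 for SYTL1, and SYTL4 overlapped. These are the brightest probes, and the probes of SYTL1 did not share 1 direction, since its second probe was at 0.62 in siGATA2 and -0.10 in siControl and its dimmest at -0.22 and -0.47. In the siControl group, where letters A and B have 1 array, that array lay on the same side for RAB27B, RAB3B, RAB3D, SYTL1 and MLPH, at -0.41, -0.32, -0.52, 1.07 and 0.21, and on the other side for RAB27A, MYO5A and UNC13D, at 0.26, 0.16 and -0.14. No test was made of this separation, which was found in the same values.

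With the letters as a block, a setting chosen after the values were seen, the spread left between arrays was smaller for the genes that followed them. The difference of RAB3B was then 0.57 (standard error 0.0797) and that of SYTL1 -0.66 (standard error 0.082). Those of RAB27B and RAB3D came close to 0, at -0.03 (standard error 0.208) and -0.05 (standard error 0.0702). RAB27A, SYTL2, UNC13D, MYO5A and MLPH stayed at -2.80, 2.53, 1.83, 1.29 and 0.68.

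**Figure D3:**
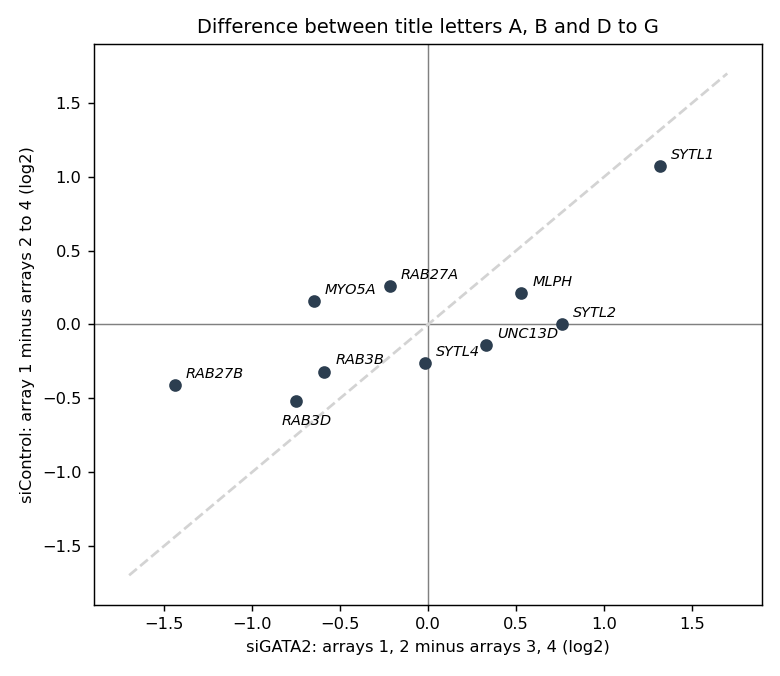
Difference of arrays with title letters A and B minus those with D to G, in the siGATA2 group (x axis, arrays 1 and 2 minus 3 and 4) and in the siControl group (y axis, array 1 minus 2 to 4), on the log2 scale, 1 point for each of the 10 genes. The dashed line marks equal differences; SYTL1, at 1.32 and 1.07, and RAB3D, at -0.75 and -0.52, lie near it, while SYTL2, at 0.76 and 0.00, does not.

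GATA factors are known to bind the letters GATA with A or T before and A or G after them, so stretches of RefSeq promoter windows (GRCh38.p14, 250 bases before to 50 after each start) that hold these 6 letters on either strand are shown for RAB27A, which was lower, and for MLPH, which was higher. Such letters are in 25% of all 35116 windows of the table. Windows were given for 8 of the 10 genes, and 6 of their 15 windows, those of RAB27A, RAB27B, RAB3B, SYTL1 and MLPH, held a match. RAB27A has 5 windows, 2 of them with a match. The capitals mark the match as it reads on the strand of the gene, and the positions are counted back from the start, whose preceding base is -1.

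RAB27A, chr15:55249049-55249089, minus strand, match from -16: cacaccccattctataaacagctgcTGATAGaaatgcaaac

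RAB27A, chr15:55319317-55319372, minus strand, match from -224: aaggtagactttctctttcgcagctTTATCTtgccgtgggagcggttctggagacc

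MLPH, chr2:237486228-237486295, plus strand, matches from -157 and -145: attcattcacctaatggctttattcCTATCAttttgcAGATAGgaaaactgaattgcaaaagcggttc

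These matches are letters only, and binding was not measured. They occurred in a gene that was lower and in one that was higher on the siGATA2 arrays, and also in RAB27B and SYTL1, whose groups overlapped. The windows of MYO5A, RAB3D and SYTL4 held none of these letters.

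To place the 10 genes among the rest of the secretory machinery, 105 further genes were listed by role, of which 99 were tested. On the siGATA2 arrays 11 were lower and 21 higher, or 11.1% and 21.2%, with a median difference of 0.25, against 14.2% and 12.3% and a median of 0.09 over all genes. At least a 2-fold change was seen in 8 lower and 8 higher of the 99 genes, against 7.13% and 4.52% of all genes. The rises depended on the scaling. With the arrays scaled to E1A spike-ins, the median of all genes was -0.43, and 8 of the 99 genes were called lower and 0 higher by limma. At an unadjusted p under 0.05, 3 were higher. Of all 28850 genes, 1901 were then called lower and 138 higher, so the loss of rises was not particular to the 99 genes. With the title letters as a block 16 were lower and 44 higher, while 5757 and 7198 of all genes, or 20% and 24.9%, were then lower and higher.

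The largest change in the whole machinery was that of UNC13C, a relative of UNC13D known from neurons. It was 8.14, 7.98, 7.56 and 7.88 on siGATA2 arrays 1 to 4 and 12.63, 11.80, 11.95 and 11.76 on siControl arrays 1 to 4. The groups were far apart, with a difference of -4.14 (standard error 0.222, adjusted p = 2.13e-05 from limma), or 17.7-fold lower. Of the same family, UNC13D was higher on the siGATA2 arrays, and UNC13B, at -0.21 (adjusted p = 0.443 from limma), was not called. Of the 10 docking and priming factors tested UNC13C was the only one lower. STXBP5, a syntaxin-binding regulator, and STXBP3, which holds plasma membrane syntaxins, rose by 0.66 (adjusted p = 0.00829) and 0.44 (adjusted p = 0.0235), in limma, and 7 were not called.

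Of the other Rab3 and Rab27 relatives, RAB37, a granule GTPase, was higher. It was 9.70, 9.77, 10.25 and 10.19 on siGATA2 arrays 1 to 4 and 8.13, 8.11, 8.63 and 8.02 on siControl arrays 1 to 4, a difference of 1.76 (standard error 0.191, adjusted p = 0.000373 from limma). As the mean over the probes of RAB37 it was 0.96. RAB3A, RAB3C and RAB26, at 0.28, -0.70 and 1.00, were not called.

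Genes that load or switch Rab proteins changed in both directions, with 3 of 15 lower and 4 higher. RAB3IL1, an exchange factor, fell by 1.97 (standard error 0.147, adjusted p = 6.71e-05 from limma) and was 6.30 to 6.66 on siGATA2 against 8.11 to 8.58 on siControl arrays, with a difference of -1.36 under normexp. RABGGTB, the catalytic subunit of the enzyme that gives Rab proteins their lipid anchor, fell by 1.38 (standard error 0.0934, adjusted p = 4.37e-05). CHML, an escort protein for the same reaction, fell by 0.58 (adjusted p = 0.0134). MADD, an exchange factor for Rab3 and Rab27, and RAB3GAP2, a subunit of the enzyme that switches Rab3 off, rose by 0.74 and 0.64 (adjusted p = 0.00197 and 0.0113 from limma).

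Among 13 further effectors and myosins, 3 were lower and 3 higher. The active zone protein RIMS1, a Rab3 effector, was 5.73 to 6.18 on siGATA2 and 7.81 to 8.27 on siControl arrays, a difference of -2.25 (standard error 0.156, adjusted p = 4.81e-05 from limma), which was -1.44 with normexp. Its relative RIMS4 differed by -2.10 (standard error 0.112, adjusted p = 2.08e-05). MYRIP, which ties Rab27 to a myosin as MLPH does, was 10.06 to 10.22 against 11.20 to 11.64 and differed by -1.27 (standard error 0.121, adjusted p = 0.000194). EXPH5, another Rab27 effector, was 11.82 to 12.26 against 10.70 to 10.97 and rose by 1.23 (standard error 0.129, adjusted p = 0.000303). The motor MYO5B and the effector RPH3AL rose by 1.31 and 0.49 (adjusted p = 0.0132 and 0.00396 from limma). Of these further effectors of Rab27, EXPH5 was higher and MYRIP lower, so both directions occurred among them.

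Of 12 synaptotagmins, a family that includes calcium sensors of vesicle fusion, 1 was lower and 4 higher. SYT4 was 12.09, 11.85, 10.75 and 11.08 on siGATA2 arrays 1 to 4 and 15.05, 14.56, 14.46 and 14.44 on siControl arrays 1 to 4. Every siGATA2 array was lower than every siControl array, with a difference of -3.19 (standard error 0.314, adjusted p = 0.00023 from limma). SYT7, a sensor of lysosome and granule release, was 12.68 to 13.11 against 11.52 to 12.08 and rose by 1.23 (standard error 0.163, adjusted p = 0.00103). SYT11 rose by 1.57 (adjusted p = 0.0018), although 2 of its 4 siControl signals were not well above background and the rise was 0.55 with normexp. SYT8 was not well above background on any siControl array and was higher on siGATA2 arrays (adjusted p = 0.0112 from limma). With siControl signals raised to the lowest signal well above background on their array where they lay under it, the rise was 1.92-fold. With normexp the log2 difference of SYT8 was 0.48, so 1.92-fold is not a lower bound over the settings.

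The SNARE proteins carry out the fusion itself. Of 17 SNARE proteins and their recycling factors, STX2 fell by 0.98 (adjusted p = 0.0065) and VAMP8, a SNARE of secretory granules, rose by 0.94 (adjusted p = 0.0113), in limma. STX3, a syntaxin of the apical membrane, rose by 1.25 (adjusted p = 0.0492 from limma), and 14 were not called. The exocyst, which tethers vesicles to the plasma membrane, had 0 of 9 subunits called by limma and 0 by the test that the methods name, with 1 lower and 3 higher at an unadjusted p under 0.05 in limma and 1 and 2 in that test. Its subunit EXOC7, chosen here after its values were seen, had a mean of 13.95 in both groups. The siGATA2 arrays were split, however, with EXOC7 at 14.38, 14.31, 13.57 and 13.54 on arrays 1 to 4, against 13.86 to 14.11 on siControl arrays.

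Among 10 genes of exosomes and multivesicular bodies, 1 was lower and 2 higher. SDCBP, or syntenin, which sorts cargo into exosomes, was 10.62 to 11.19 on siGATA2 and 11.86 to 12.14 on siControl arrays, a difference of -1.07 (standard error 0.165, adjusted p = 0.00213 from limma). The tetraspanin CD9 was 14.21 to 14.26 against 13.44 to 13.52 and rose by 0.77 (standard error 0.0861, adjusted p = 0.000442). TSG101, a sorting subunit, rose by 0.67 (adjusted p = 0.0315). Of 9 other exocytic and recycling Rab proteins, RAB10, RAB2B and RAB5A rose by 0.93, 0.70 and 0.64 (adjusted p = 0.00101, 0.00441 and 0.0472 from limma), and RAB8A fell by 0.45 (adjusted p = 0.0312).

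**Figure D4:**
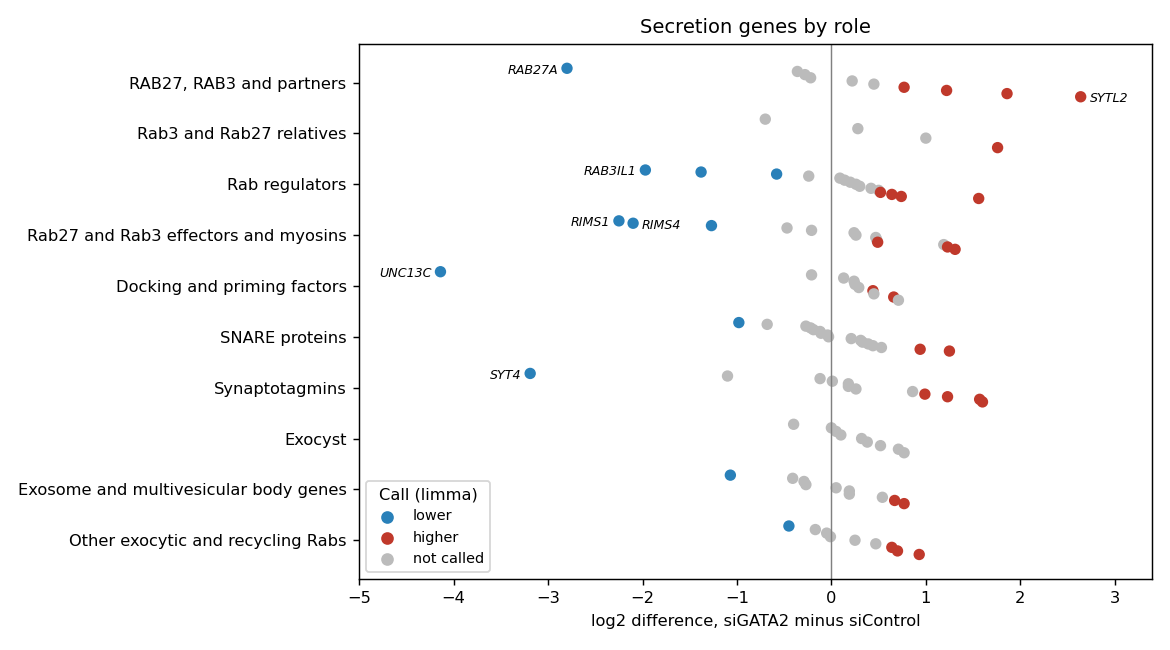
Log2 difference of siGATA2 minus siControl (x axis) for the 10 genes and for 99 further secretion genes by role (y axis), 1 point for each gene. Blue points were called lower and red points higher by limma at an adjusted p under 0.05, and grey points were not called. UNC13C, at -4.14, SYT4, at -3.19, and RAB27A, at -2.80, lie farthest to the left, and no exocyst subunit was called.

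Of 29 further genes named above, 8 were called in the same direction under each of 21 refits, namely UNC13C, SYT4, RIMS1, RIMS4, RAB3IL1, RABGGTB, MYRIP and SDCBP. All of them were lower, but the spike-in scaling, which moves all genes down, is among the refits, and 11 genes, 10 of them higher, lost their call in that refit alone. Besides the spike-in refit, CHML and SYT8 lost their call with slide row as a block, and VAMP8 with scaling to the 75th percentile. CHML, MYO5B, STXBP5 and VAMP8 also lost theirs with siControl arrays 2 and 4 alone. STX3, RAB5A, RAB8A, TSG101 and STXBP3 lost their call with 75th percentile scaling and with siControl arrays 2 and 4 alone. All of these but STXBP3 lost it with slide row as a block. STXBP3, RAB8A and RAB5A lost it with the replicate block, and STX3 and RAB5A with the methods' t-test and without the filter on dim probes. STX3, RAB5A, RAB8A, TSG101 and STXBP3 also depended on single arrays. STX3 lost its call without any array other than siControl 1, at 1.12 to 1.40. RAB5A lost it without siGATA2 array 3 or 4 or any siControl array, at 0.52 to 0.69, and TSG101 without siGATA2 array 3 or 4 or siControl array 1, 2 or 4, at 0.57 to 0.69. RAB8A lost it without siGATA2 array 1 or 2 or siControl array 2, 3 or 4, at -0.45 to -0.38, and STXBP3 without siGATA2 array 1, 3 or 4 or siControl array 2, 3 or 4, at 0.40 to 0.46.

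The genes whose signal followed that of RAB27A most closely over the 8 arrays, among 17857 others with a symbol, were SLC36A1, TTL, CISH, UBE2Z and GNAI2, with Pearson correlations from 0.9986 to 1. All 5 were lower on the siGATA2 arrays, by -2.48 for SLC36A1, an amino acid transporter, -1.45 for TTL, a tubulin-modifying enzyme, -1.16 for CISH, -1.20 for UBE2Z and -1.34 for GNAI2, a G protein subunit. These correlations are given as a description, since the points share the difference between the groups. The correlation was highest for SLC36A1, with means of 7.99 and 10.47 on siGATA2 and siControl arrays.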

How the data were processed

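The authors deposited an intensity for each spot of 8 one-colour arrays, processed by Agilent Feature Extraction 11.0.1.1 with its background correction, and a matrix of log2 values that they had quantile-normalized. The design named in the files differs from that in the methods. From the processed signal, spots with outlier flags were left out, the log2 values of a probe were averaged and the 8 arrays were quantile-normalized with limma 3.58.1 in R 4.3.3. Of 42405 probes, 26364 were named through RefSeq accessions of GRCh38.p14. Left out were 1914 probes that carry no annotation and those whose mean log2 signal over the arrays did not reach 3, which left 35514, and a gene was read from its brightest probe.

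The groups were compared with lmFit and eBayes (the methods name a t-test, run here as an alternative), and p-values were adjusted by Benjamini-Hochberg over all 28850 genes. Alternatives changed the scaling, background correction, filter, probe rule, test, array weights, blocks and arrays included. Arrays have no read depth, and 4 arrays per group limit the precision. No spot was saturated. Coordinates are those of the RefSeq promoter table.

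The genes and lists were chosen with earlier results of these data known. Named are the 10 genes with all their probes, GATA2, up to 3 called genes of each role with the largest fall and rise whose probe was well above background on all arrays of a group, and the 5 genes most like RAB27A. A gene that this rule names is not reported here. Cell type markers KRT5 and LYZ and 6 of the 105 listed genes were not among the genes tested. Tumour cohorts, xenografts and protein assays were not analysed here.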

Additional observations from a re-analysis of the deposited data

Results flagged for a closer look

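In 6 of 80 groups of 4 values examined, 1 array lay apart from the other 3 by more than Dixon's test allows at 95%, where chance gives about 1 in 20, and 5 of the 6 concern siControl array 1. SYTL1 was 15.06 on siControl array 1 and 13.98 to 14.00 on the others, a gap that spans 0.979 of the range of that group. RAB3D was 8.87 there and 9.36 to 9.42 on the others, a gap of 0.902. RAB8A, at 13.42 against 13.46, STX3, at 9.77 against 11.13 to 11.37, and SYT7, at 12.08 against 11.52 to 11.61, had gaps of 0.882, 0.852 and 0.832. MYRIP was 10.22 on siGATA2 array 1 and 10.06 to 10.08 on the other siGATA2 arrays, a gap of 0.865. The values come from the same arrays and are not independent of each other. On siControl array 1 the E1A spike-ins had a mean log2 signal of 11.13, against 13.45 to 13.83 on the other 7 arrays.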

How the results depend on the processing

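The title letters as a block and siControl arrays 2 and 4 alone were chosen after the data were seen. Of the 210 refitted differences of the 10 genes, 14 moved by more than the spread between arrays, and 6 of the 10 genes kept their sign throughout. The exceptions were RAB27B, RAB3B, SYTL1 and SYTL4. With spike-in scaling, where the median of all genes was -0.43 and the spike-ins of siControl array 1 were dimmer than on the other arrays, 1 of the 10 genes was higher, 0 of the 99 further genes were called higher by limma (3 at an unadjusted p under 0.05), all genes numbered 1901 lower and 138 higher, and RPH3AL, STXBP3, TSG101 and RAB5A turned to -0.12, -0.22, -0.01 and -0.02. With array weights 18 further genes were lower, and 6318 of all genes were lower and 6846 higher. With letters as a block 2 of the 10 genes were lower, which supports nothing as they were chosen on this contrast, 44 further genes were higher, and 5757 and 7198 of all genes were lower and higher, and with slide row as a block 2184 of all genes were higher. At a fold of 2 the numbers were 8 further genes higher, and 2056 and 1304 of all genes lower and higher, as the threshold implies. The cause of the other changes was not tested.

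The GATA2 signal differed by 0.84 within letters A and B and by 0.26 within letters D to G. In the rows of the slide the GATA2 difference was 0.95 and 0.03. The GATA2 signal passed the threshold under array weights, where it was 0.95 higher, and under the letter block, where it was 0.47 higher. It had adjusted p values from 0.0115 to 0.986 over the alternatives. With 1 array left out it was 0.49 to 0.89, the 10 genes had 1 lower and 4 higher each time, the further genes 10 to 13 lower and 16 to 21 higher, and all genes 3239 to 4465 lower and 2591 to 4001 higher.

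The replicate numbers showed no steady pairing of the arrays, but 4 arrays per group are too few to settle whether they were paired. Same-numbered arrays deviated from their group means with correlations of 0.54, -0.31, 0.17 and 0.22, and 3 of 8 arrays correlated best with their own number. Title letter B is shared by siGATA2 array 2 and siControl array 1, and letter F by siGATA2 array 4 and siControl array 3. Whether arrays that share a letter are paired was not tested. With the replicate block 11 further genes were lower and 20 higher, 3708 and 3376 of all genes were lower and higher, the 10 genes had 1 lower and 4 higher, and GATA2 was at 0.68. Signal over background, lowest on siControl arrays 1 and 3, limits the dim probes of RAB27B and UNC13D.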
